A study of Mus musculus with 27 samples.

Results

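The contact map of C2C12 cells, an established mouse line of muscle precursor cells, was examined for how the contact between 2 sites falls with the distance between them on the same autosome. All 40 kb bins of chromosomes 1 to 19 with any signal on their own chromosome entered, which were 59773 of the 61816 autosomal bins and of the 66382 bins of the whole map. The samples described here hold RNA-seq of wild-type and *Firre* knockout mouse embryonic fibroblasts, CTCF ChIP-seq with inputs of wild-type, knockout and *Firre* transgene fibroblasts, and Hi-C of C2C12, of which the Hi-C alone was used. The Hi-C cells carried the label WT, received no treatment according to the labels, and gave 2 replicates that the deposited map holds as 1 pool. The protocol attached to them describes replicates from embryonic fibroblasts of distinct embryos, whereas the source is the C2C12 line, so what sets the 2 replicates apart is not certain. No RNA of the C2C12 cells was analysed here, and the cell type could not be checked against muscle markers.

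In Hi-C, chromatin is fixed with formaldehyde and cut with a restriction enzyme, and ends that lie close together in the nucleus are joined and sequenced as a pair. A chromosome is a long flexible fibre, so loci that are near on it meet often and the frequency of contact falls with distance. On a plot with 2 logarithmic axes the fall is read as a slope, and a slope of -1 means that contact is inversely proportional to distance. Loops and topologically associated domains (TADs) shape the short distances, and compartments, in which active gene-rich and inactive gene-poor chromatin each gather with their own kind, shape the long ones. A slope describes an average over many cells and does not identify a structure.

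The enzyme was HindIII, which cuts at AAGCTT (a palindrome, so the same on both strands), and 99.97% of the autosomal bins with contacts hold at least 1 such site, with a median of 13 sites per bin. The map therefore joins stretches of sequence like those of these 2 bins, taken from the chromosome 19 bins closest to the mean GC content of the GC-poor and the GC-rich class described below. They are shown because the class of the bins at both ends goes with how contact falls. The reference sequence is NCBIM37 (the build also named mm9), plus strand, with the HindIII site in capitals, for chr19:52360432-52360491 and chr19:8842079-8842138.
GC-poor: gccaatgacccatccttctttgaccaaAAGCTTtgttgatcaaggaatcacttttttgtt
GC-rich: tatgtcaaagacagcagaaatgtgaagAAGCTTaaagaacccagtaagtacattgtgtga
The GC-poor bin (chr19:52360001-52400000) has 38.8% GC, 11 HindIII sites and 0 coding genes, and the site shown lies between annotated genes. The GC-rich bin (chr19:8840001-8880000) has 47.2% GC, 12 HindIII sites and 6 coding genes, and the site shown lies in an exon of Nxf1, an mRNA export factor, from 8842063 to 8842121, with the stretch running on into the intron. The GC-poor bin had 20.1% of its signal at 400 kb to 4 Mb and 19.4% at 4 to 40 Mb, and the GC-rich bin had 9.93% and 10.1%. The GC-rich bin kept more of its signal inside itself (30.1% against 12.4%). These are single bins of 339 and 359 read pairs on their own chromosome.

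The values are corrected signal, which has no physical unit. Iterative correction scales the rows of the map until every bin has about the same total, here a median of 662 units with 99.8% of the bins within 1% of it. Whole read pairs could be read back from the corrected values for 99.3% of the bin pairs with signal, and the map then held 23896100 read pairs, of which 20206310 lay within autosomes. Of these, 6327366 spanned 40 to 400 kb, 4053417 spanned 400 kb to 4 Mb and 3312805 spanned 4 to 40 Mb. Autosomes differed in depth, from 516 read pairs per bin on chromosome 7 and 560 on chromosome 14 to 775 on chromosome 19 and 945 on chromosome 15. Because the replicates are pooled, no replicate error exists for any value below and no test was made. The spread given is the SD over the 19 autosomes, which are regions of 1 map and not replicates, or a counting error from the read pairs, which covers counting only.

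Contact fell steeply over the first megabases and then levelled off on every autosome. The mean signal per bin pair, with pairs without signal counted as 0, had a median over the 19 autosomes of 33.4 units between neighbouring bins at 40 kb. It was 3.84 units at 400 kb, 0.206 units at 4 Mb and 0.0461 units at 40 Mb. Signal was present in 99.4% of the bin pairs at 40 kb, in 86.9% at 400 kb, in 16.3% at 4 Mb and in 4.10% at 40 Mb, so that at long distance a mean rests on the minority of pairs in which a read pair was seen. At 40 kb the autosomes ran from 30.7 units on chromosome 14 to 37.5 on chromosome 11, and at 400 kb from 3.50 units on chromosome 14 to 4.23 on chromosome 13. At 4 Mb they ran from 0.181 units on chromosome 11 to 0.310 on chromosome 12, and at 40 Mb from 0.0292 units on chromosome 9 to 0.120 on chromosome 19. The last value is from a single distance at which 8.83% of the pairs of chromosome 19 held signal, and in the class of distances from 40 Mb no autosome exceeded 0.0544 units.

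The shape of the fall was shared. The slope of a line through the log-spaced distance classes had a median of -0.91 at 40 to 400 kb (SD 0.018 over 19 autosomes), -1.32 at 400 kb to 4 Mb (SD 0.046) and -0.59 at 4 to 40 Mb (SD 0.056). The middle range was steeper than the near range on 19 of 19 autosomes, by 0.31 to 0.50, and the far range was shallower than the near range on 19 of 19, by 0.21 to 0.47. The same held on 19 of 19 autosomes in read pairs without correction and with the bins of fewest partners left out. With absent pairs left out of the mean, the middle range was steeper than the near range on 0 of 19 autosomes (median slopes -0.57 and -0.86). That mean keeps only pairs with at least 1 read pair and so flattens wherever signal is sparse, which makes its slopes beyond 400 kb no measure of the decay.

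Followed class by class, the slope of the median curve was -1.08 from 40 to 80 kb and -0.79 from 80 to 120 kb. It steepened to -1.46 from 1.14 to 1.42 Mb, and 17 of the 19 autosomes had their steepest step from a class between 0.8 and 2 Mb. Chromosome 7 reached it earlier, near 0.699 Mb, and chromosome 9 later, near 2.27 Mb. The median curve was shallowest, at -0.45, from 11.3 to 14.3 Mb, stayed between -0.48 and -0.73 up to 44.9 Mb, and fell again at -1.12 from 44.9 to 56.5 Mb. On chromosomes 17 and 18 there was 1 step each in which contact rose with distance, with a slope of 0.16 from 14.3 to 17.9 Mb on chromosome 17 and of 0.09 from 22.6 to 28.4 Mb on chromosome 18.

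The autosomes were more alike in the classes up to that from 2.56 Mb than in those beyond. Their coefficient of variation in contact was 5.27% at 40 kb, 6.07% at 80 kb, 4.50% in the class from 0.64 Mb and 4.83% in the class from 2.56 Mb. It was 9.55% in the class from 4 Mb, 15.9% in the class from 31.8 Mb and 19.2% in the class from 50.36 Mb. The counting error of a chromosome's mean was smaller throughout, with a median of 0.422% at 40 kb, 1.08% from 4 Mb and 1.01% from 50.36 Mb, so the spread between autosomes was larger than counting error.

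**Figure D1:**
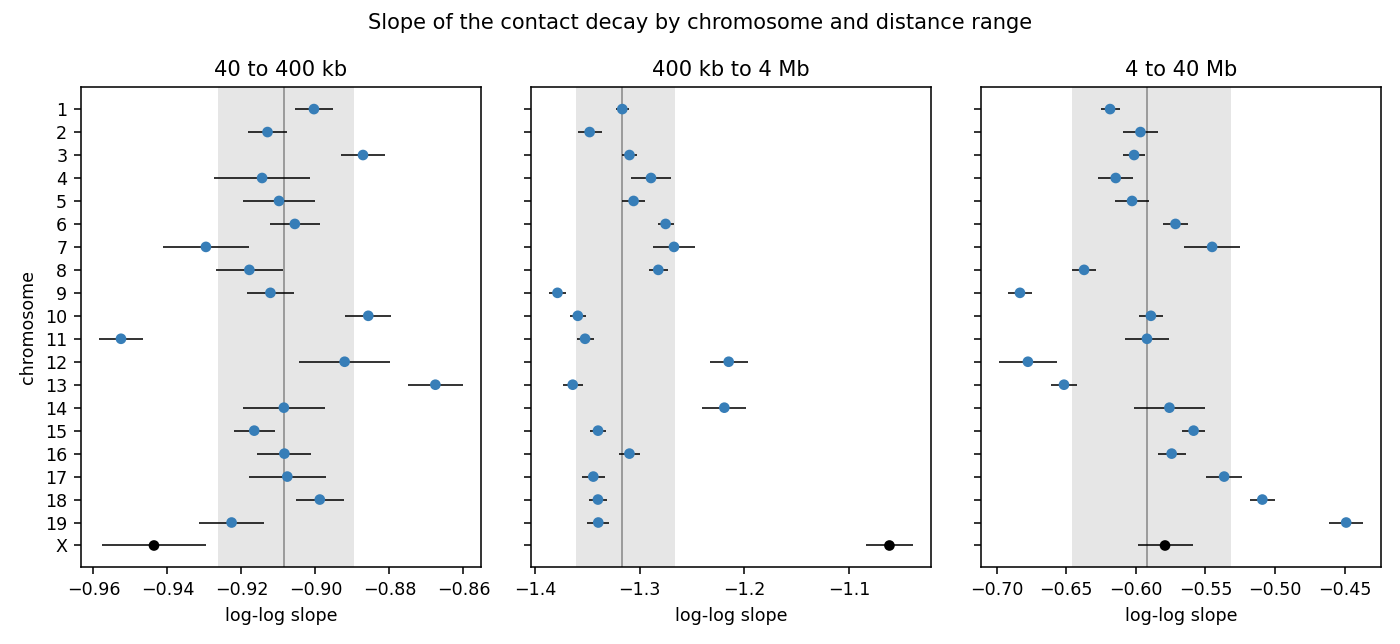
Log-log slope of the contact decay for each chromosome (autosomes in blue, chromosome X in black) in 3 distance ranges. Bars are 1.96 counting standard errors, the line is the median and the grey band the mean plus or minus 1 SD of the 19 autosomes. Chromosome 11 is steepest at 40 to 400 kb (-0.95), chromosomes 12 and 14 are shallowest among autosomes at 400 kb to 4 Mb, and chromosome 19 is shallowest at 4 to 40 Mb (-0.45).

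Within the near range, chromosome 11 fell most steeply at -0.95, followed by chromosome 7 at -0.93, and chromosomes 13 and 10 were shallowest at -0.87 and -0.89. Chromosomes 11 and 13 lay more than 2 SD from the mean of the autosomes. Counting errors were 0.0026 to 0.0066, and of the 18 pairs of neighbours in the order, only 2 differed by more than 1.96 combined counting errors. These were chromosomes 11 and 7, and chromosomes 10 and 13. Other neighbours were not separated, and autosomes farther apart in the order were not compared in this way. Chromosome 11 is the most GC-rich autosome (43.8%), and over the 19 autosomes the near slope went with GC content (Pearson r = -0.74, Spearman rho = -0.73, r = -0.56 without chromosomes 3 and 11). It also went with coding genes per Mb (r = -0.73) and, in the other direction, with HindIII sites per bin (r = 0.71). GC content went together with HindIII sites (r = -0.90) and with coding genes per Mb (r = 0.85), so these cannot be told apart here. These are descriptions over 19 points that share 1 pair of libraries and 1 correction, among 58 relations computed.

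In the middle range, chromosomes 9 and 13 were steepest at -1.38 and -1.36. Chromosomes 12 and 14 were shallowest at -1.21 and -1.22, both more than 2 SD from the mean of the autosomes, and 3 of 18 neighbours differed by more than counting error. With the lowest 5% of the bins by number of partners left out, the slopes were -1.25 on chromosome 12 and -1.27 on chromosome 14, still the shallowest but within 2 SD of the mean. Contact at 4 Mb on chromosome 12 was then 0.237 in place of 0.310 units. In read pairs without correction the slopes were -1.32 and -1.34, and chromosomes 8 and 4 were the shallowest instead.

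In the far range, chromosomes 9 and 12 were steepest, both at -0.68, and chromosomes 19 and 18 were shallowest at -0.45 and -0.51. With the lowest 5% of bins left out chromosome 12 was at -0.62, behind chromosomes 9, 13 and 8, and in read pairs chromosomes 8 and 9 were steepest (-0.69 and -0.67). Chromosomes 19 and 18 were the shallowest in each. Chromosome 19 was beyond 2 SD, and 6 of 18 neighbours differed by more than counting error. Chromosome 19 is the shortest autosome (61.3 Mb) and chromosome 18 the next (90.8 Mb), so on chromosome 19 pairs at 40 Mb hold 1 bin towards each end. The far slope had r = -0.49 with chromosome length, and r = -0.25 without chromosomes 1 and 19. The near and the middle slopes had r = 0.09 and r = 0.19 with length.

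Most cis signal (signal between bins of the same chromosome) came from distances under 4 Mb. The median over the autosomes was 14.2% within a bin, 34.7% at 40 to 400 kb, 23.9% at 400 kb to 4 Mb, 20.3% at 4 to 40 Mb and 6.68% beyond 40 Mb. These shares are taken over the rows of the map, so signal between 2 bins counts for both and signal within a bin once. Counted once per read pair, 5592165 of the 21057905 cis read pairs of the whole map lay within a bin. The share at 40 to 400 kb was lowest on chromosomes 14 (31.3%) and 12 (32.5%) and highest on chromosomes 19 (38.8%) and 11 (38.5%). At 400 kb to 4 Mb it was lowest on chromosomes 11 (22.0%) and 7 (22.1%) and highest on chromosomes 13 (26.1%) and 12 (25.2%), with chromosome 13 beyond 2 SD. At 4 to 40 Mb it was lowest on chromosomes 15 (18.18%) and 13 (18.20%) and highest on chromosomes 12 (22.1%) and 14 (21.96%). Chromosomes 12 and 14 therefore held less of their signal near and more far. With the lowest 5% of bins by number of partners left out their near shares were 33.4% and 32.6% and their far shares 21.1% and 21.2%. Chromosome 6 then had the lowest near share (32.4%) and the highest far share (21.7%) of the 19 autosomes. A bin joined to a single other bin gives that pair its whole total, and single pairs of 631 to 670 units from bins with 1 partner occurred at 4 to 40 Mb on chromosomes 2, 5, 7, 11, 12 and 14. The share of signal at 4 to 40 Mb from bins with under 20 partners was highest on chromosome 7 (4.14%), followed by chromosome 14 (3.05%) and chromosome 12 (2.99%).

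**Figure D2:**
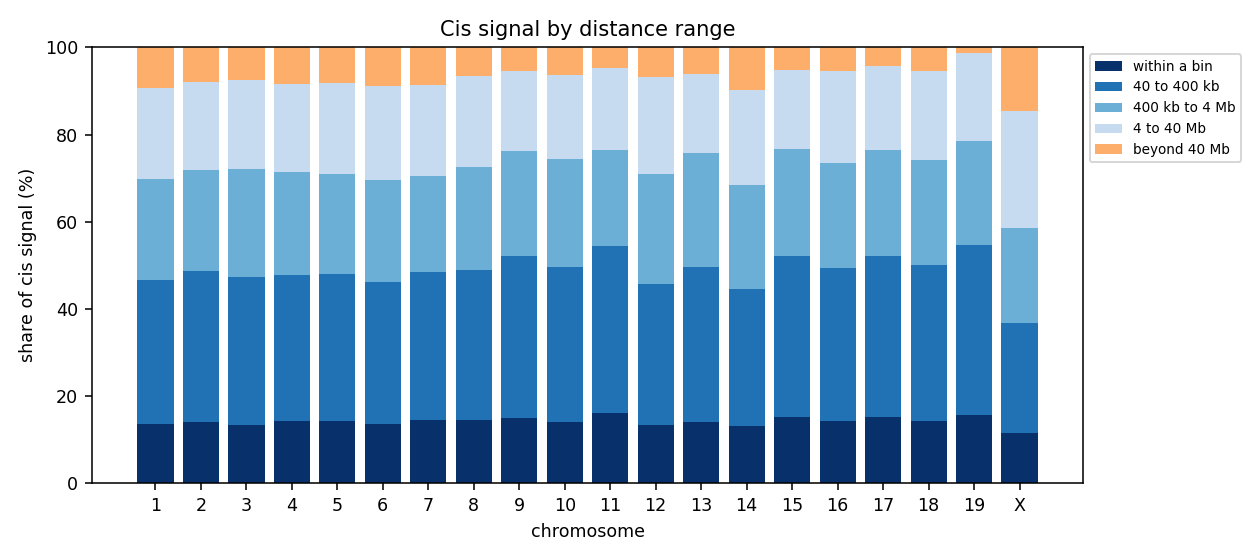
Stacked bars of the share of cis signal (%) within a bin, at 40 to 400 kb, at 400 kb to 4 Mb, at 4 to 40 Mb and beyond 40 Mb for each chromosome. Chromosome 19 has 38.8% at 40 to 400 kb and 1.36% beyond 40 Mb, and chromosome X has 25.0% and 14.7%.

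The share within a bin ran from 13.2% on chromosome 14 and 13.3% on chromosome 12 to 15.7% on chromosome 19 and 16.0% on chromosome 11. It went with GC content over the autosomes (r = 0.80, rho = 0.81, r = 0.69 without chromosomes 3 and 11). It also went with coding genes per Mb (r = 0.74), HindIII sites per bin (r = -0.68) and length (r = -0.53), and these were not told apart. The share beyond 40 Mb depends on how many such pairs a chromosome can hold and was lowest on chromosomes 19 (1.36%) and 17 (4.24%) and highest on chromosomes 14 (9.72%) and 1 (9.28%).

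Most of each autosome's signal stayed on the chromosome, and more so on long ones. The cis share of all signal had a median of 85.0% (SD 0.99 percentage points), with a counting error of 0.064 to 0.14 percentage points. It was lowest on chromosomes 19 (82.7%) and 15 (83.2%) and highest on chromosomes 9 (86.32%) and 1 (86.319%). Chromosome 19 was beyond 2 SD. These shares leave out the 116 autosomal bins with signal to other chromosomes only, whereas the counting error was computed with them. With those bins the share changed most on chromosome 7, from 85.06% to 84.25%, which is more than counting error. The cis share rose with length (r = 0.82, rho = 0.81), also without chromosomes 1 and 19 (r = 0.71), and in read pairs without correction (r = 0.73, and 0.56 without those 2). In corrected signal, chromosome 9, of 124.1 Mb, equalled chromosome 1, of 197.2 Mb, and chromosome 15, of 103.5 Mb, lay below chromosomes 16, 17 and 18, which are shorter. Neither held in read pairs without correction, where chromosome 9 had 86.6% against 87.8% on chromosome 1. Chromosome 15 there had 86.9%, above chromosome 16 (85.7%), chromosome 17 (85.4%) and chromosome 18 (86.5%). The cis share had r = -0.51 with read pairs per bin in corrected signal and r = 0.20 in read pairs, so the direction of that relation depended on the correction.

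A longer chromosome offers each bin more partners, so 1 decay curve applied to every autosome gives a rise with length by arithmetic. Whether this accounts for the rise of the cis share was not tested. With the mean curve of the 19 autosomes applied to the bins of each chromosome, the cis signal per bin outside the bin itself would run from 427 units on chromosome 19 to 507 on chromosome 1 (r = 0.95 with length). Measured, it ran from 462 to 495 units. The ratio of measured to mean-curve signal was lowest on chromosomes 2 (0.972) and 1 (0.975) and highest on chromosomes 18 (1.05) and 19 (1.08), and had r = -0.87 with length. The autosomes thus spread over fewer units as measured than under the mean curve. Correction holds a bin's cis and trans signal to a fixed sum. Its part in this was not tested, as the comparison with the mean curve was made in corrected signal only.

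**Figure D3:**
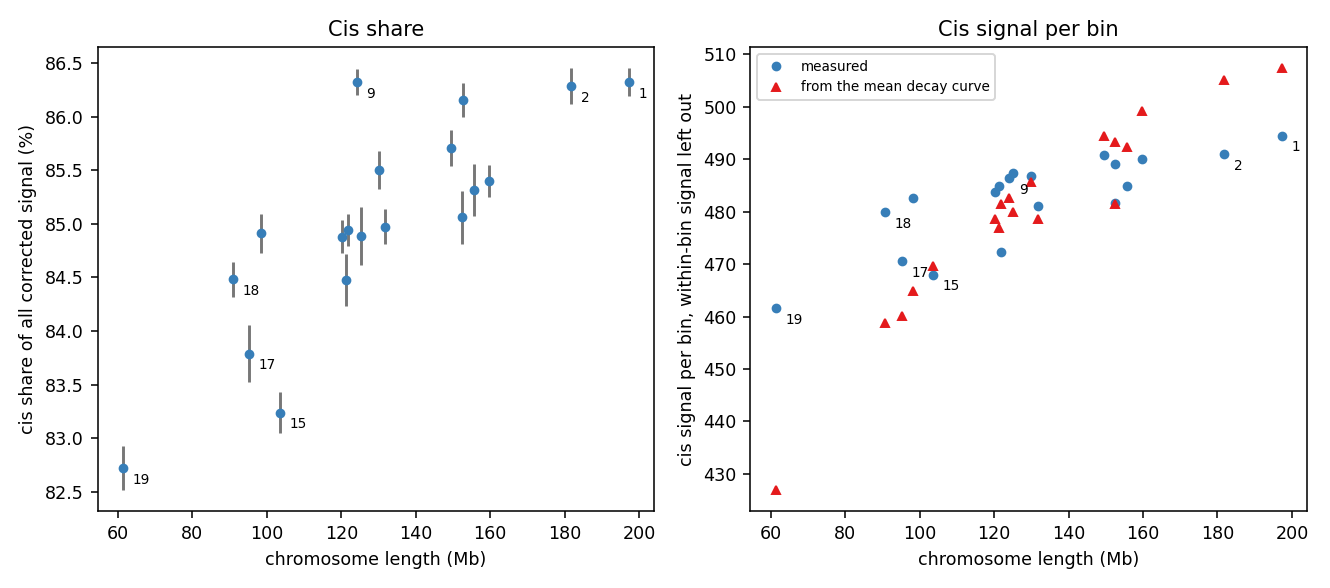
Left, cis share of all corrected signal (%) against chromosome length (Mb) for the 19 autosomes, with bars of 1.96 counting standard errors. Right, measured cis signal per bin without within-bin signal (circles) and the value from the mean decay curve (triangles). The measured values run from 462 to 495 units and those of the mean curve from 427 to 507.

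Contact on a chromosome did not fall to the level between chromosomes up to 100 Mb, in any distance class with at least 100 bin pairs, on any of the 19 autosomes. Longer distances were not examined. The mean signal per bin pair between chromosomes had a median of 0.00162 units (0.00148 to 0.00183), and each chromosome's cis signal was divided by its own value. Averaged over the distances from 36.4 to 44.0 Mb, and not taken at the single distance of 40 Mb whose levels are given above, the cis signal was 28.0 times the level between chromosomes in the median, from 23.3 times on chromosome 11 to 39.7 times on chromosome 19. In the last distance class, from 79.84 Mb on most autosomes and from 50.36 Mb on chromosome 19, it was 9.22 times the level in the median, from 5.34 times on chromosome 11 to 25.5 times on chromosome 19.

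The fall with distance was shallower for pairs of GC-poor than of GC-rich bins up to 4 Mb. In mammals GC-rich sequence is richer in genes and mostly lies in the active compartment, which makes GC content a rough label of compartment. The bins of each autosome were split by GC content into 3 classes of equal size, and pairs were compared with all pairs of the same chromosome at the same distance. The GC-poor class had a median of 37.6% GC, 0.401 coding genes, 13.6 HindIII sites and 520 read pairs per bin, and the GC-rich class 47.0% GC, 1.19 coding genes, 11.6 HindIII sites and 777 read pairs per bin.

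In corrected signal at 40 to 400 kb, pairs of GC-rich bins were above the mean of all pairs on 19 of 19 autosomes (median 1.14 times) and pairs of GC-poor bins below it on 19 of 19 (0.862 times), and the ratio of GC-poor to GC-rich contact was 0.763 (0.687 to 0.885). At 400 kb to 4 Mb the order was the opposite, with GC-poor pairs at 1.26 times, GC-rich pairs at 0.854 times and a ratio of 1.46 (1.05 to 1.81). At 4 to 40 Mb GC-poor pairs were at 1.33 times, GC-rich pairs at 0.959 times and the ratio was 1.38 (1.17 to 1.64). In both longer ranges the ratio was above 1 on 19 of 19 autosomes.

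The order at the longer distances depended on the correction. Iterative correction brings the bins to about the same total (99.8% of bins within 1% of the median), so more signal of a bin at short distance leaves less for the others. In read pairs without correction GC-poor pairs stayed below GC-rich pairs in the median, with ratios of 0.502 at 40 to 400 kb, 0.883 at 400 kb to 4 Mb and 0.791 at 4 to 40 Mb, above 1 on 0, 5 and 3 of 19 autosomes. These ratios hold the lower number of read pairs per GC-poor bin. What both had was the rise of the ratio from the near to the middle range, 2.00 times in corrected signal and 1.98 times in read pairs, on 19 of 19 autosomes in each.

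In corrected signal the exchange of order took place within a narrow range of distance. GC-poor contact exceeded GC-rich contact on 0 of 19 autosomes in the class from 0.28 Mb, on 1 from 0.32 Mb, on 9 from 0.4 Mb, on 16 from 0.52 Mb and on 19 from 0.64 Mb. It did so on 19 in every class up to that from 2.56 Mb, on 16 to 19 in the classes from 3.2 to 15.96 Mb, and again on 19 from 20.08 Mb. Beyond 2.56 Mb the classes in which GC-rich contact was the higher lay on chromosomes 2, 7, 12, 13, 15 and 17, with the lowest ratio on chromosome 17 (0.703, from 5.04 Mb). The ratio was lowest at 0.12 Mb (median 0.672) and highest in the class from 1.28 Mb (1.68). These distances were looked up after the classes had been seen. Among bins in the middle of each chromosome's distribution of read pairs, which brought the classes to 604 and 671 read pairs per bin, the ratio was 0.820 at 40 to 400 kb, 1.50 at 400 kb to 4 Mb and 1.27 at 4 to 40 Mb. It was above 1 on 0, 19 and 18 of 19 autosomes. The part of HindIII site density in the ratio was not tested.

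**Figure D4:**
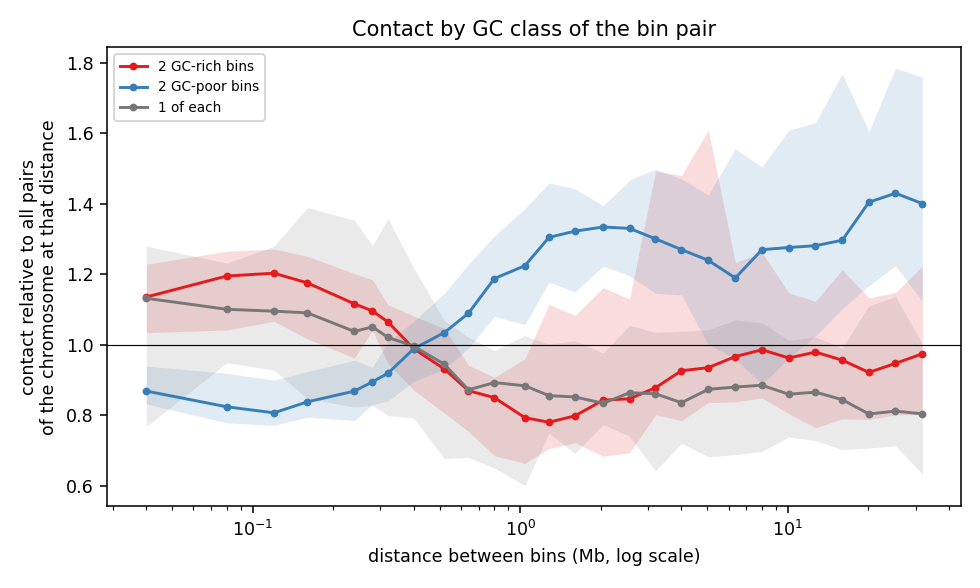
Corrected contact of bin pairs of 1 GC class relative to all pairs of the chromosome at the same distance (Mb, log scale), as the median (lines) and range (bands) of the 19 autosomes. GC-poor pairs start at 0.869 and GC-rich pairs at 1.14 at 0.04 Mb, they cross near 0.4 Mb, and from 1.28 Mb they stand at 1.30 and 0.780. In read pairs without correction the median ratio of the 2 stays below 1 in each of the 3 ranges.

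The decay of GC-poor pairs was the shallower. Their slope was above that of GC-rich pairs by a median of 0.05 at 40 to 400 kb (19 of 19 autosomes) and by 0.19 at 400 kb to 4 Mb (18 of 19). Chromosome 12 was the exception in the middle range, and with the bins of fewest partners left out all 19 autosomes had the shallower slope for GC-poor pairs. In read pairs the differences were 0.05 (16 of 19) and 0.21 (19 of 19). At 4 to 40 Mb the difference was 0.05 with an SD of 0.12 (13 of 19), so it was within the spread of the autosomes.

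Bins of like GC content met more than bins of unlike content at long distance. The ratio of like pairs (both GC-poor or both GC-rich) to unlike pairs was 1.38 at 4 to 40 Mb (SD 0.14, above 1 on 19 of 19 autosomes), with chromosome 13 lowest (1.13) and chromosome 19 highest (1.61). It was 1.22 at 400 kb to 4 Mb, from 1.05 on chromosome 11 to 1.49 on chromosome 12, also above 1 on 19 of 19. At 40 to 400 kb it was 0.941 and above 1 on 4 of 19 only, from 0.819 on chromosome 14 to 1.16 on chromosome 19. In read pairs the ratio was 1.31 at 4 to 40 Mb (19 of 19), 1.08 at 400 kb to 4 Mb (14 of 19) and 0.770 at 40 to 400 kb (1 of 19). At 4 to 40 Mb unlike pairs were at 0.839 times the mean of all pairs, below both GC-rich pairs (0.959 times) and GC-poor pairs (1.33 times). In corrected signal this did not hold for GC-rich pairs in the classes from 0.4 to 1.6 Mb. Their median was below that of unlike pairs there, at 0.780 against 0.856 from 1.28 Mb, with GC-poor pairs at 1.30. The ratio of 1.22 at 400 kb to 4 Mb thus does not mean that GC-rich bins met each other more than unlike bins.

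Position along the chromosome went with smaller differences. Mouse autosomes have the centromere at their low-coordinate end. With each autosome cut into 3 parts of equal length, the slope at 400 kb to 4 Mb was -1.27 in the part at the centromere, -1.35 in the middle and -1.34 in the part at the high end. The part at the centromere was shallower than the high end on 15 of 19 autosomes (median difference 0.08, SD 0.11), and on 13 of 19 with the bins of fewest partners left out. It was shallower than the middle on 11 of 19 (median difference 0.07, SD 0.12). With the first and last 20 Mb taken as the ends, the part at the centromere was shallower than the high end by 0.14 (SD 0.12, 16 of 19). It was shallower than the middle by 0.06 (SD 0.13, 16 of 19). With the bins of fewest partners left out, these differences were 0.09 (17 of 19) and 0.07 (16 of 19). For 3 equal parts they were then 0.06 (13 of 19) and 0.04 (12 of 19). The size of the difference thus depended on where the ends were cut and on the bins of fewest partners. With 3 equal parts and all bins, mean contact at 400 kb to 4 Mb was 0.819 units at the centromere. In the middle it was 0.739 units, lower on 17 of 19. At 40 to 400 kb the high end had the most contact, 11.6 units against 10.7 in the middle (higher on 16 of 19), and it also had the highest GC content, 43.3% against 41.2%.

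Chromosome X fell outside the autosomes at short distance, in the middle slope and in its share of signal at long distance. Its contact was 25.4 units at 40 kb, 0.759 times the autosomal median, and 0.665 times in the class from 0.28 Mb, below 19 of 19 autosomes up to the class from 0.8 Mb. In the class from 1.6 Mb it lay above 19 of 19, at 1.08 times the median. It stayed above 17 to 19 of them in each class up to that from 50.36 Mb. Its share of cis signal was 26.7% at 4 to 40 Mb (25.7% with the lowest 5% of bins left out). Beyond 40 Mb its share was 14.7%, and with all bins both shares were above 19 of 19. Its slopes were -0.94, -1.06 and -0.58 in the 3 ranges, of which the middle one was shallower than on 19 of 19 autosomes (-1.09 with the lowest 5% of bins left out). Its cis share of 84.43% lay within the range of the autosomes in corrected signal, whereas in read pairs its share of 84.39% was below each of the 19 (lowest 84.98%). Chromosome X had fewer read pairs per bin (443) and lower GC content (39.3%) than each autosome, and 3.47% of its bins had under 20 partners, against 0.450% of the autosomal bins. Their part in the difference was not tested beyond leaving those bins out.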

How the data were processed

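Hi-C of C2C12 cells (2 replicates) was analysed. Per the labels and the study's methods, reads were processed by the authors with HiC-Pro 2.7.8 from mapping (to mm9) through filtering and binning to correction. They deposited 1 iteratively corrected contact signal for both replicates, in bins of 40 kb. All 22 chromosome ends in the bin list equal those of NCBIM37, from which GC content, HindIII sites and coding genes (GENCODE) were taken. The RNA-seq counts were not used here.

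Bins with any cis signal were used, and absent pairs were counted as 0. Means were taken over distance classes, 10 per decade, with a minimum of 100 bin pairs for levels, and slopes were fitted by least squares on log10 values (Python 3.11.15, NumPy 2.4.6, pandas 2.3.3). Figures were drawn with matplotlib 3.10.9. A bin's correction factor was taken as the median of its trans values over those of its partners, for bins with at least 20 trans partners. Division by the factors left whole numbers, within 0.02, for 99.99997% of these pairs. They were used as read pairs and gave counting errors. The slope fit and this step were tested on simulated data. Named are, for each measure, the 2 highest and 2 lowest autosomes and those more than 2 SD from the mean. The autosomes, measures and classes were chosen with earlier results of these data known.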

Additional observations from a re-analysis of the deposited data

Results flagged for a closer look

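Outside the autosomes and chromosome X, the map holds signal on 2 further sequences. Of the 398 bins of chromosome Y, 61 had contacts, with 832 recovered read pairs and a cis share of 0%. The median number of partners was 15, and bins with under 20 trans partners gave no read pairs to this count. The mitochondrial genome is 1 bin, and this 1 bin had contacts, with 3983 read pairs and a cis share of 1.01%. Among the samples described here there is no control for either.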

How the results depend on the processing

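Of 82 alternative values, 61 lay within 1 SD over the autosomes (for the r of the cis share with length, within 0.1; for a count, equal to it), 19 moved beyond that and 2 changed direction. The latter were the GC-poor to GC-rich ratios in read pairs without correction, 0.883 at 400 kb to 4 Mb and 0.791 at 4 to 40 Mb, and the near ratio there was 0.502. Leaving out absent pairs moved the slopes to -0.86, -0.57 and -0.030, and the order of the near and middle slopes turned on 19 of 19 autosomes. That mean has a floor of about 1 read pair, so this alternative says nothing about the stability of the slopes beyond 400 kb. Without the highest 1% of pairs the middle and far slopes were -1.39 and -0.77. Between the 2 end points the near and far slopes were -0.94 and -0.65, and from 80 kb the near slope was -0.85. Without within-bin signal the shares were 40.4%, 28.1% and 23.6% and the cis share 83.0%. The cis share was 86.6% in read pairs and 86.0% with trans partners on autosomes only. Its r with length was 0.71 without the 2 autosomes farthest from the median length. The like-to-unlike ratio at 4 to 40 Mb was 1.18 for 2 classes of equal size by GC content and 1.10 for bins with against without a coding gene. In the middle of the read pair distribution the near GC-poor to GC-rich ratio was 0.820. Added after the data were seen were the values in read pairs, without bins under 20 partners, without the first and last 3 Mb of bins with contacts, for the GC-poor to GC-rich ratio, and, for the like-to-unlike ratio and the slopes by position, without the bins of fewest partners. Trimming of trans pairs gave no value, since 0.143% of them have signal and the trimmed mean is 0, and it is not among the 82. No paired analysis was possible because the 2 replicates are pooled in 1 map, and for the same reason neither could be left out.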
